A study of Homo sapiens with 9 samples.

Results

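The replication-independent histone variant genes lie outside the histone gene clusters, and 8 of them, chosen by their symbols, are described here among the 58735 genes of the deposited table. They are the linker histone gene H1FX, the H2A variant genes H2AFX, H2AFY, H2AFZ, H2AFV and H2AFJ, and the H3.3 genes H3F3A and H3F3B. KHM-5M cells, a human thyroid cancer line, received DMSO (the solvent control), 0.3 μM YK-4-279 or 1 μM YK-4-279 for 24 h before poly(A)-selected RNA was sequenced. YK-4-279 is a small-molecule inhibitor of ETS transcription factors. Each of the 3 groups had 3 samples. All samples came from 1 cell line, and the labels do not say whether those of a group were separate cultures, so p-values measure only the spread between these samples, which may be technical.

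Nucleosomes wrap DNA around a core of histones H2A, H2B, H3 and H4, and a linker histone of the H1 family binds where the DNA enters and leaves. Most histone proteins come from clustered genes that are read during S phase, lack introns and give mRNAs that end in a stem-loop in place of a poly(A) tail. Variant genes give mainly polyadenylated mRNAs throughout the cell cycle, and chaperones and remodelling complexes can place their proteins into chromatin outside replication.

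The structure of the 8 genes is mixed. H1FX (3:129314771-129316277, minus strand), H2AFX (11:119093854-119095467, minus) and H2AFJ (12:14774383-14778002, plus) have 1 exon in their canonical transcripts, in GRCh38. H2AFZ (4:99948086-99950388, minus) and H2AFV (7:44826791-44848083, minus) have 5 exons, H2AFY (5:135333900-135399914, minus) has 9, and H3F3A (1:226061851-226072001, plus) and H3F3B (17:75776434-75785893, minus) have 4 each.

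H2AFX was the only member whose reference transcripts carried the histone stem-loop, searched on the mRNA strand as GGCNCTTTTNAGNGCC, a pattern chosen after the data were seen. The site is in the 3′ untranslated region at chr11:119094898-119094913 on the minus strand of GRCh38, with 49 bases between it and the stop codon and 1024 bases of the transcript after it. It is shown because it sets H2AFX apart from the other members, with the stem-loop in capitals and 4 to 6 flanking bases in lower case.
H2AFX: caaaGGCCCTTTTAAGGGCCaccacc
The same letters were present in 62 of 66 protein-coding clustered histone genes (93.9%) and in 70 of 19702 protein-coding genes (0.355%) in the reference transcripts. As poly(A) selection captures mainly polyadenylated mRNA, any H2AFX mRNA that ended at the stem-loop would be largely missing from its counts.

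RefSeq promoter sequences (GRCh38.p14) matched all 8 members by their current symbols. Each window held 250 bases before and 50 bases after the start of transcription. CCAAT, the box bound by NF-Y, was searched on both strands and was found in 6 of 8 member promoters against 34.6% of 35116 promoters. The GC box GGGCGG was found in 5 of 8 against 45.0%, and the ETS core CCGGAA in 1 of 8 (H2AFJ) against 17.2%. TGACGTCA, the cAMP response element, and the E2F letters TTTCGCGC, TTTGGCGC or TTTCCCGC were found in 0 of 8, against 1.8% and 2.7% of all promoters. None of the 27 matches overlapped another. A match of letters describes the sequence and does not show a bound site.

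The 250 bases before the start are shown for H3F3B and H1FX, which rose at 1 μM as given below, and for H2AFX, which did not pass the test. They run 5′ to 3′ towards the start, with CCAAT or its reverse complement ATTGG in capitals. H3F3B (chr17:75779780-75780029, minus strand) and H2AFX (chr11:119095466-119095715, minus) each held 4 such matches, and H1FX (chr3:129316287-129316536, minus) held none of the motifs searched. The H3F3B window lies inside the deposited gene, which extends further upstream.
H3F3B: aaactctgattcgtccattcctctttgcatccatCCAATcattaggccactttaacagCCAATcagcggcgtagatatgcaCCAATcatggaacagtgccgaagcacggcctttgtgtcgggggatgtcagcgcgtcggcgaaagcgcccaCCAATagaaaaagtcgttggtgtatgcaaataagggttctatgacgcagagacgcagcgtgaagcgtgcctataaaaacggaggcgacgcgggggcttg
H1FX: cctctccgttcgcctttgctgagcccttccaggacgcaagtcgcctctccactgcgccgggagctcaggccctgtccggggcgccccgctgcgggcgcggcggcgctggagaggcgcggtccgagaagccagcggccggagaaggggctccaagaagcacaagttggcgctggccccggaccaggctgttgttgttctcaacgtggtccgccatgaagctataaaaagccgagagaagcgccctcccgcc
H2AFX: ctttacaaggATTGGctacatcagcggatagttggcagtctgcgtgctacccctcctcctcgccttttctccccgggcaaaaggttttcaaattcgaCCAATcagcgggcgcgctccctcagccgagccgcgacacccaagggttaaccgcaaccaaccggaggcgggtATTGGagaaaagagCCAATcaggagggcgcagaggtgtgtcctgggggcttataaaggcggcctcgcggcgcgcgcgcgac

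Library totals ran from 16903251 to 18238884 counts. At these depths a gene listed at 0 could still have a level of 3 counts, which is 0.164 to 0.177 CPM (counts divided by the library total and rescaled), as far as counting error goes. The 8 members together took 0.199% to 0.221% of the counts. Mitochondrial genes took 2.84% to 3.44%. Of the thyroid markers, PAX8 had 2742 to 3660 counts, while SLC5A5 reached at most 1 count, TSHR 2, TG 4 and NKX2-1 10, and FOXE1 had 7 to 34. The epithelial keratins KRT8 (22002 to 24344) and KRT18 (7028 to 8131) were abundant, EPCAM had 89 to 126 counts and CDH1 at most 5. Leukocyte markers were near 0 (PTPRC and CD3E at most 1, CD68 at most 2), as was endothelial PECAM1 (at most 6), whereas VWF had 36 to 77 counts and COL1A1, a collagen gene of mesenchymal cells, had 5579 to 9593. COL1A1 fell at 1 μM by 0.41 on the log2 scale (SE 0.102, adjusted p = 0.0132, edgeR), although its groups overlapped in CPM. The part of COL1A1 in the results below was not tested.

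In the DMSO samples the members covered a wide range of levels. On the FPKM scale, which divides counts by gene length and library size, H2AFZ had the highest level in DMSO, at 182 ± 4.6 (SD, n = 3). H1FX followed at 126 ± 14 and H2AFX at 113 ± 15. H3F3B stood at 76.2 ± 2.4, H3F3A at 70.9 ± 1.3, H2AFV at 44.9 ± 0.68, H2AFY at 16 ± 0.047 and H2AFJ at 12.9 ± 0.66. In this order the DMSO samples of H1FX overlapped those of H2AFX, while the other neighbours did not overlap. These levels placed the members between the percentiles 77.7 (H2AFJ) and 98.9 (H2AFZ) of all genes tested. The deposited length of H2AFY, 17730 bases, joins many exons, which lowers its FPKM relative to its count. The order of the members depends on the deposited lengths. In CPM H3F3B (471) was above H2AFZ (422) in DMSO. There H2AFY (286), H3F3A (225) and H2AFV (215) were above H1FX (192) and H2AFX (184).

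**Figure D1:**
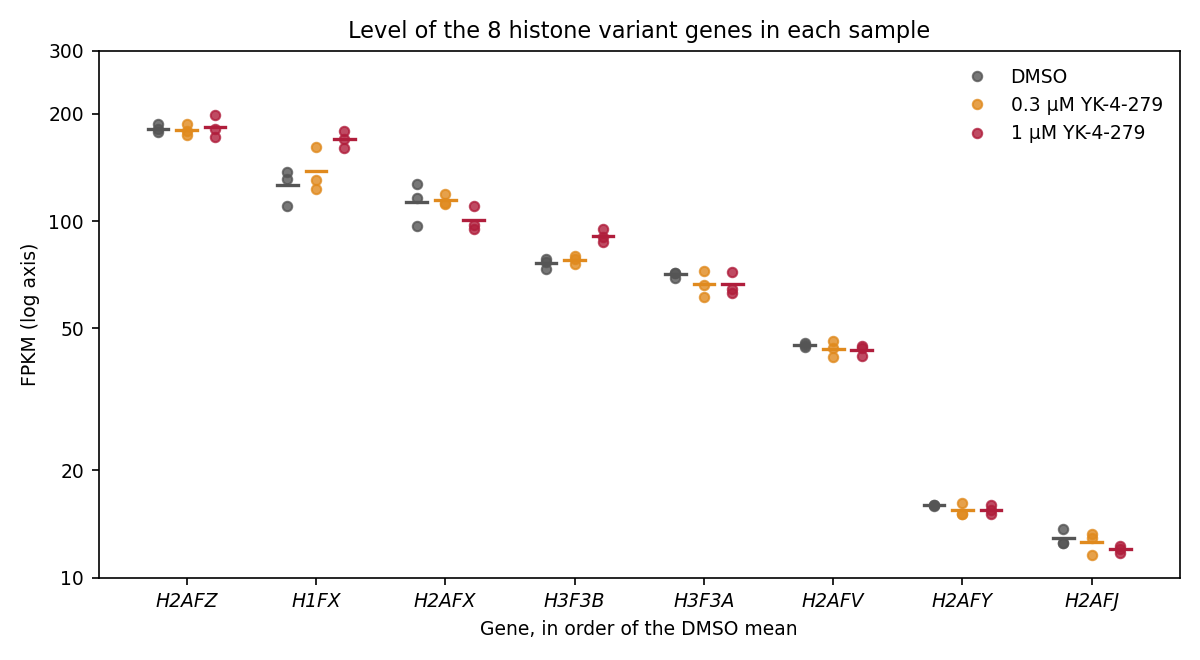
FPKM (log axis) of the 8 genes in each of the 9 samples, in order of the DMSO mean, with a point per sample and a short bar for the group mean (n = 3). H1FX was 160.6 to 178.9 FPKM at 1 μM against 110.3 to 137.2 in DMSO, and H3F3B at 1 μM also lay above all its DMSO samples.

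At 1 μM against DMSO, 2 of the 8 members rose and none fell. They were the linker histone gene H1FX and 1 of the 2 H3.3 genes, H3F3B. Changes were tested by the quasi-likelihood method of edgeR, with p-values adjusted by Benjamini-Hochberg over all 15617 genes tested and called at an adjusted p under 0.05. Over all those genes 17.6% were called, 7.67% higher and 9.95% lower. The median log2 fold change was -0.0605 over the 8 members and -0.00829 over all genes tested. All 8 passed the filter on low counts in each comparison. None of the 8 passed the rule used here for differentially expressed genes (DEGs), while 3.23% of the genes tested did. Besides an adjusted p under 0.05 it asks for a protein-coding gene and a change of about 1.5-fold or more. The paper's methods word their own rule with a P-value under 0.05, so its DEG counts may follow another rule. Because these are bulk samples, a change in the mix of cells and a change in RNA per cell cannot be told apart.

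H1FX, the gene of linker histone H1.X, had 3581, 3016 and 3368 counts in DMSO. The counts were 3318, 3573 and 4245 at 0.3 μM and 4451, 4667 and 4331 at 1 μM. All 1 μM samples lay above all DMSO samples, while 0.3 μM replicate 3 lay at the edge of the 1 μM group. FPKM were 126 ± 14, 138 ± 20 and 170 ± 9.1 (SD, n = 3) in DMSO, at 0.3 μM and at 1 μM. The rise at 1 μM was 1.33-fold (log2 fold change 0.41, SE 0.0764, 95% confidence interval 0.248 to 0.575, adjusted p = 0.00238, edgeR). An antisense gene, H1FX-AS1, overlaps H1FX by 886 bases on the opposite strand. The methods name a stranded mRNA kit and a small RNA kit for the libraries. Whether strand was used in counting is not given in the sources used here. H1FX-AS1 had 74, 75 and 66 counts in DMSO, 54, 46 and 43 at 0.3 μM, and 47, 39 and 40 at 1 μM. It fell by 0.79 on the log2 scale at 1 μM (SE 0.198, adjusted p = 0.0136, edgeR), the opposite direction to H1FX.

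Among linker histones of the clusters, the 6 clustered H1 genes summed to 27 ± 2.4 FPKM in DMSO, 27.5 ± 3 at 0.3 μM and 50.9 ± 2.6 at 1 μM (SD, n = 3). Poly(A) selection captures mainly polyadenylated mRNA, so this sum and the level of H1FX do not compare the output of both kinds of gene. Of the clustered H1 genes tested, HIST1H1C rose (log2 fold change 1.01, SE 0.0939, adjusted p = 1.71e-05, edgeR), with DMSO counts of 227 to 293 and 1 μM counts of 519 to 531. HIST1H1D (-0.12, adjusted p = 0.832) and HIST1H1E (0.37, adjusted p = 0.593, edgeR) were not called at counts of at most 33.

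H3F3A and H3F3B are separate genes for the same H3.3 protein. H3F3B had 8176, 8171 and 8172 counts in DMSO, 8297, 8699 and 8585 at 0.3 μM, and 9875, 10079 and 9362 at 1 μM. All 1 μM samples were above all samples of the other 2 groups. The rise was 1.18-fold (log2 fold change 0.24, SE 0.0545, 95% confidence interval 0.121 to 0.355, adjusted p = 0.00838, edgeR). H3F3A had 3782, 4089 and 3848 counts in DMSO, 3722, 4135 and 3377 at 0.3 μM, and 3625, 3522 and 3834 at 1 μM. Its groups overlapped, with a log2 fold change of -0.11 (95% confidence interval -0.242 to 0.0202, adjusted p = 0.233, edgeR). UNK, which overlaps H3F3B by 1123 bases on the opposite strand, had 713 to 760 counts in DMSO and fell by 0.41 on the log2 scale (SE 0.0771, adjusted p = 0.00245, edgeR).

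The 5 H2A variant genes were not called at 1 μM. H2AFX, whose protein H2A.X is phosphorylated around DNA breaks, had 3543, 2835 and 3192 counts in DMSO, 3248, 3478 and 3149 at 0.3 μM, and 2815, 3089 and 2654 at 1 μM. DMSO replicate 2 lay inside the range of the 1 μM samples. The log2 fold change was -0.18 (SE 0.0888, 95% confidence interval -0.373 to 0.00712, adjusted p = 0.173, edgeR). Without DMSO replicate 2 it was -0.28 with an adjusted p of 0.00735, and with a correction for GC content it was -0.18 with an adjusted p of 0.00813 (edgeR), so its call depended on these settings. The reference transcripts of H2AFX and H1FX had 67.1% and 68.6% GC, and those of the other 6 members 45.5% to 54.8%.

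H2AFZ and H2AFV encode H2A.Z.1 and H2A.Z.2, which mark promoters and regulatory regions. H2AFZ had 7203, 7413 and 7329 counts in DMSO, 7363, 7790 and 7017 at 0.3 μM, and 7680, 7918 and 6679 at 1 μM. The groups overlapped, and the 95% confidence interval of the log2 fold change at 1 μM ran from -0.129 to 0.131. H2AFV ranged from 3637 to 3928 counts in DMSO and from 3593 to 3645 at 1 μM, with an interval from -0.181 to 0.0522. H2AFY, the gene of macroH2A1, ranged from 4830 to 5150 and from 4636 to 4928 counts, with an interval from -0.169 to 0.0557. H2AFJ had 730, 833 and 717 counts in DMSO and 724, 701 and 699 at 1 μM. In CPM its 1 μM samples were all below its DMSO samples, but the change was not called (log2 fold change -0.12, 95% confidence interval -0.274 to 0.0337, adjusted p = 0.272, edgeR). The FPKM of the 5 genes summed to 368 ± 16 in DMSO, 366 ± 13 at 0.3 μM and 356 ± 22 at 1 μM (SD, n = 3).

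In all, 3 of the 8 members had groups that did not overlap at 1 μM (H1FX and H3F3B higher, H2AFJ lower), against 36.6% of all genes tested. Of the 3 genes with 1 exon 1 rose, and of the 5 spliced genes 1 rose. H2AFX, the member with the stem-loop, was among those not called.

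**Figure D2:**
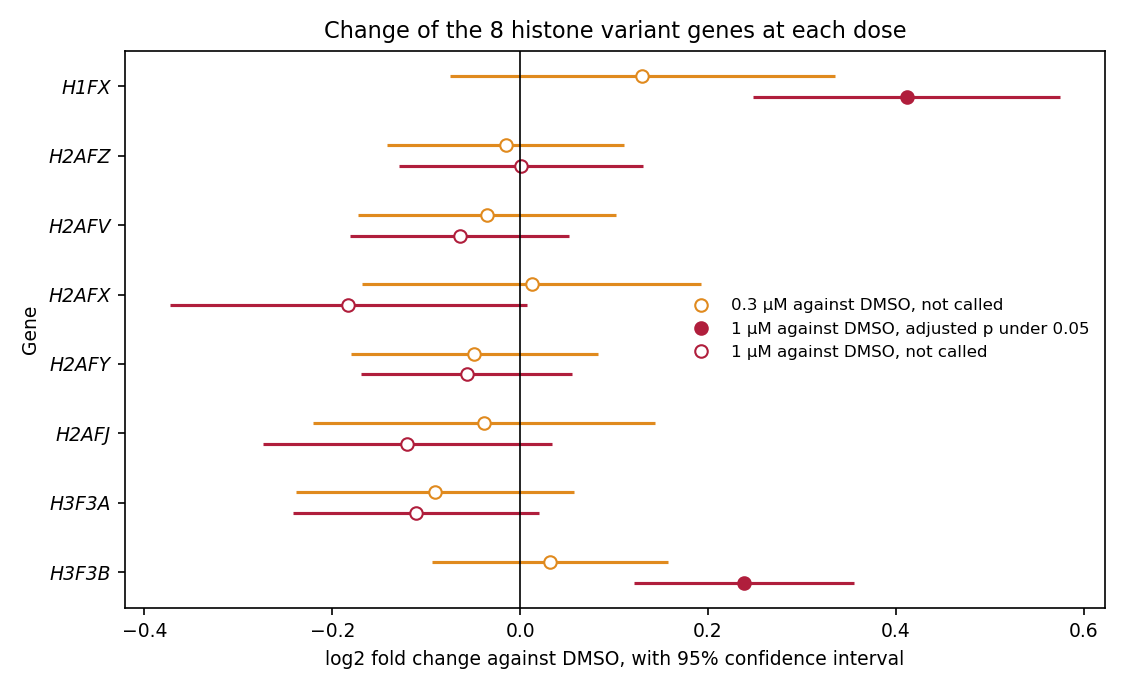
Log2 fold change of each of the 8 genes against DMSO (x axis) with its 95% confidence interval, at 0.3 μM and 1 μM (n = 3 per group), with filled points for an adjusted p under 0.05. At 1 μM H1FX (0.41) and H3F3B (0.24) were called, and all 8 intervals at 0.3 μM included 0.

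At 0.3 μM against DMSO none of the 8 members was called, and neither was any of the 15762 genes tested (0%) by edgeR. At an unadjusted p under 0.05, 594 genes (3.77%) and 0 members passed, and DESeq2 called 1 gene, which was no member. The members' log2 fold changes ran from -0.09 (H3F3A) to 0.13 (H1FX), with 3 of 8 above 0 and a median of -0.0255, beside 0.000893 over all genes tested. The groups overlapped for all 8 members, whereas they did not overlap for 8.36% of all genes tested. The value of H1FX had an SE of 0.0971 and a 95% confidence interval from -0.0749 to 0.335.

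The value of H1FX at 0.3 μM depended on single libraries. In 0.3 μM replicate 3 H1FX had 161 FPKM, against 123.2 and 130.7 in replicates 1 and 2. Without that replicate the log2 fold change of H1FX at 0.3 μM was 0.0089. It was 0.045 without DMSO replicate 2 and 0.21 without 0.3 μM replicate 1, beside 0.13 with all samples. The library of 0.3 μM replicate 3 had the lowest summed FPKM of 17 S phase genes in its group, 630 against 758 and 735. The S phase sums were 751, 751 and 758 in DMSO, and 653, 624 and 613 at 1 μM, so this library lay within the range of the 1 μM samples. The part of these S phase levels in the H1FX values was not tested.

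At 1 μM against 0.3 μM the same 2 members were called, again higher. Of the 15583 genes tested 12.6% were called, 5.85% higher and 6.75% lower. The DEG rule was passed by none of the 8 members and by 1.96% of all genes. H3F3B was 1.16-fold higher (log2 fold change 0.22, SE 0.0545, adjusted p = 0.0151, edgeR). H1FX was 1.22-fold higher (log2 fold change 0.29, SE 0.0816, adjusted p = 0.0265, edgeR), although its groups overlapped in CPM.

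Both differences between the doses depended on single libraries. The call of H1FX was lost without 0.3 μM replicate 1 (log2 fold change 0.22, adjusted p = 0.1) or replicate 2 (0.25, adjusted p = 0.115), and without 1 μM replicate 2 (0.26, adjusted p = 0.102) or replicate 3 (0.29, adjusted p = 0.0747, edgeR). Without 0.3 μM replicate 3 the difference in H1FX was 0.41 (adjusted p = 0.000225, edgeR). The call of H3F3B was lost without 1 μM replicate 2 (0.19, adjusted p = 0.0725) or replicate 3 (0.22, adjusted p = 0.0543, edgeR). H2AFX, with a log2 fold change of -0.18 (SE 0.0663, adjusted p = 0.0779, edgeR), passed the threshold without 1 μM replicate 2 (-0.25, adjusted p = 0.0358, edgeR). Its 1 μM samples were all below its 0.3 μM samples in CPM. Groups did not overlap for 2 of 8 members (H3F3B higher, H2AFX lower), against 31.5% of all genes. This comparison and the one with DMSO share the 1 μM samples.

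Ratios between sister genes within a sample do not depend on library size. H3F3B to H3F3A was 1.11, 1.02 and 1.09 in DMSO, 1.14, 1.08 and 1.3 at 0.3 μM, and 1.4, 1.47 and 1.25 at 1 μM, on the FPKM scale. The height of this ratio depends on the deposited gene lengths, 6134 bases for H3F3B and 3146 for H3F3A. In counts H3F3B was further above H3F3A, with 8176 against 3782 in DMSO replicate 1. The differences between groups were the same for ratios of counts. Every ratio at 1 μM was above every ratio in DMSO, and the difference was 0.35 on the log2 scale (exact two-sided permutation p = 0.1, adjusted p = 0.6 over 6 tests). With 3 against 3 samples 0.1 is the smallest p this exact test can give, so it could not reach 0.05.

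H2AFV to H2AFZ, the ratio of the H2A.Z genes, was 0.248 ± 0.0085 in DMSO, 0.244 ± 0.0042 at 0.3 μM and 0.237 ± 0.021 at 1 μM (SD, n = 3). The log2 difference between 1 μM and DMSO was -0.063 (exact permutation p = 0.5, adjusted p = 0.6), with overlapping groups. The other 4 tests gave an exact permutation p of 0.2 to 0.6. In these tests the H3F3B to H3F3A ratio differed by 0.23 on the log2 scale between 1 μM and 0.3 μM (exact permutation p = 0.2, adjusted p = 0.6).

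**Figure D3:**
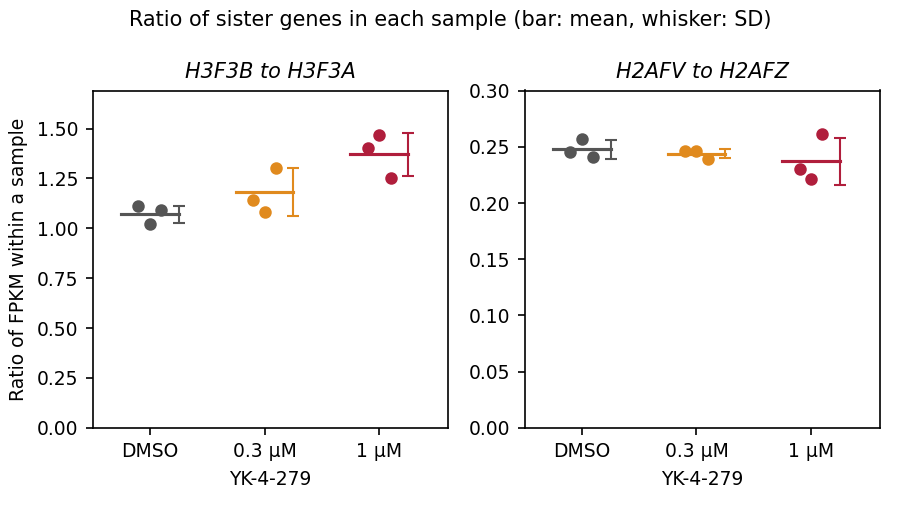
Ratio of FPKM of 2 sister genes within each sample (y axis from 0), with a point per sample, a bar for the mean and a whisker for the SD (n = 3 per group). H3F3B to H3F3A averaged 1.07 in DMSO and 1.37 at 1 μM, and the H2AFV to H2AFZ groups overlapped.

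Of 11 other histone variant genes, 2 were expressed at a level that could be tested. CENPA, the centromeric H3 variant, fell at 1 μM by 0.29 on the log2 scale (SE 0.0676, adjusted p = 0.00982, edgeR), from 1217 to 1302 counts in DMSO to 985 to 1088. H2AFY2, the gene of macroH2A2, was not called (-0.063, adjusted p = 0.695, edgeR). The germline variants H1FOO, H2BFM, H2BFWT, H2AFB2 and H2AFB3 were at 0 in all 9 samples, and H3F3C, H1FNT, H2AFB1 and HILS1 had at most 4 counts in any sample.

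Among 30 genes of histone chaperones and variant exchange, 3 rose and 7 fell at 1 μM, with a median log2 fold change of -0.0273. Of all genes tested, 7.67% rose and 9.95% fell, with a median of -0.00829. The falling genes included ATRX (-0.82, adjusted p = 0.00191), the remodeller that works with DAXX to place H3.3 at repeats, and HELLS (-0.65, adjusted p = 0.000434, edgeR), a remodeller linked to DNA methylation and to macroH2A. The replication-coupled chaperones CHAF1B (-0.36), NASP (-0.24) and ASF1B (-0.27) also fell, as did HJURP (-0.20), the chaperone of CENPA, with adjusted p from 0.00675 to 0.0331 (edgeR). INO80 (0.36, adjusted p = 0.00399), a remodeller that acts on H2A.Z nucleosomes, and ASF1A (0.28, adjusted p = 0.0423, edgeR), which hands H3.3 to the HIRA complex, rose. The H3.3 chaperone genes HIRA (0.20, adjusted p = 0.214), UBN1 (0.12, adjusted p = 0.235) and DAXX (0.13, adjusted p = 0.143) and the H2A.Z exchange genes SRCAP (-0.098, adjusted p = 0.743) and EP400 (-0.11, adjusted p = 0.309, edgeR) did not pass. These 5 were named after their values were seen, as the known partners of H3.3 and H2A.Z.

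Of 17 genes that signal through H2A.X at DNA breaks, 5 fell at 1 μM and none rose, with a median of -0.0639. Of all genes tested, 9.95% fell and 7.67% rose. CHEK2, a checkpoint kinase, fell by 0.48 on the log2 scale (adjusted p = 0.00052, edgeR). ATM, a kinase that phosphorylates H2A.X, fell by 0.38 (adjusted p = 0.000761, edgeR). The kinase genes ATR (0.037, adjusted p = 0.771) and PRKDC (-0.086, adjusted p = 0.246, edgeR) of the same list were not called. BRCA1 (-0.33), MRE11 (-0.36) and MDC1 (-0.25), which binds phosphorylated H2A.X, fell with adjusted p from 0.00417 to 0.0207 (edgeR). Of 10 genes that process histone mRNA, 2 fell and none rose, with a median of 0.0431. This lies near the share of all genes tested that were called, 17.6%. The 2 were CASP8AP2 (-0.80, adjusted p = 0.000977) and LSM11 (-0.36, adjusted p = 0.0145, edgeR), which act together in the 3′-end processing of histone mRNA. SLBP, the stem-loop binding protein, was not called (0.12, adjusted p = 0.32, edgeR). None of the genes in these lists was called at 0.3 μM, where 0 of all 15762 genes tested were called.

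At 1 μM against 0.3 μM, 5 of the 30 chaperone and exchange genes were higher and 4 lower. Lower too were 2 of 17 H2A.X signalling genes and 1 of 10 histone mRNA processing genes. Of all genes tested, 12.6% were called (5.85% higher, 6.75% lower), and these last 2 lists lay near that share. ATRX (-0.93, adjusted p = 0.000237), ATM (-0.34, adjusted p = 0.00336) and CASP8AP2 (-0.81, adjusted p = 0.000576, edgeR) were among the lower genes in this comparison too. The 5 higher chaperone and exchange genes were APLF (0.73), ASF1A (0.38), ANP32E (0.26), HIRA (0.36) and INO80 (0.24), with adjusted p from 0.0135 to 0.0487 (edgeR). HIRA, which did not pass against DMSO, had 186 to 231 counts at 0.3 μM and 241 to 288 at 1 μM (adjusted p = 0.0476, edgeR).

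The clustered histone genes formed the other large group of histone transcripts. Of 90 such genes 71 were protein-coding, 15 were at 0 in all samples and 58 averaged under 10 counts. At 1 μM against DMSO 15 of 32 tested rose and 1 fell, with a median log2 fold change of 0.648. Of all genes tested, 7.67% rose and 9.95% fell. Of those 32, 5 (HIST1H2BE, HIST1H2BF, HIST1H4K, HIST1H2BO and HIST1H2AI) were too low to be tested at 0.3 μM against DMSO and passed the filter on low counts only with their 1 μM samples, and 3 of them are among the 15. Without these 5 genes, 12 of 27 rose and 1 fell, and the median was 0.436. HIST1H2AC (0.94), HIST2H2BE (1.25), HIST1H1C (1.01), HIST1H2BK (0.79), HIST1H2BD (1.13), HIST1H2BC (1.64) and HIST1H2BG (0.93) had the lowest p-values of the 27, with adjusted p of at most 0.00597 (edgeR). HIST1H2BE, 1 of the 5 genes left out, had DMSO counts of 3 to 5 and 1 μM counts of 17 to 23. The 71 protein-coding genes summed to 191 ± 16 FPKM in DMSO, 199 ± 4.9 at 0.3 μM and 324 ± 11 at 1 μM (SD, n = 3). Within this sum HIST1H2BK went from 73.4 FPKM in DMSO to 128 at 1 μM, and HIST1H1C from 23 to 46.8. Few genes thus carried much of the rise. None of 27 clustered genes tested was called at 0.3 μM, where 0 of all 15762 genes tested were called. At 1 μM against 0.3 μM, 11 of 33 were higher and none lower, or 10 higher of the same 27. Of all genes tested in that comparison, 5.85% were higher and 6.75% lower. Near-identical clustered genes can share reads, so values of single genes are uncertain.

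Proliferation genes moved in the same libraries. Of 17 S phase genes 15 fell at 1 μM and none rose (median -0.304), among them CDC45 (-0.62), MCM5 (-0.34), MCM4 (-0.30), PCNA (-0.31), MCM2 (-0.32), RRM2 (-0.30), CDC6 (-0.40) and MCM7 (-0.27), with adjusted p of at most 0.00621 (edgeR). Of 15 G2/M genes 2 rose and 5 fell (median 0.0171), while 7.67% of all genes tested rose and 9.95% fell. CDK1 (-0.68), AURKB (-0.54), TOP2A (-0.55), UBE2C (-0.46) and CENPF (-0.81) fell, and AURKA (0.23) and CCNB1 (0.21) rose, with adjusted p of at most 0.0205 (edgeR). The G2/M sums were 1310 to 1390 FPKM in DMSO, 1300 to 1350 at 0.3 μM and 1220 to 1330 at 1 μM. At 1 μM against 0.3 μM, 4 of the S phase genes were lower, and 2 G2/M genes were higher and 5 lower. Of all genes tested, 5.85% were higher and 6.75% lower. The part of these changes in the levels of the histone variant genes was not tested.

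**Figure D4:**
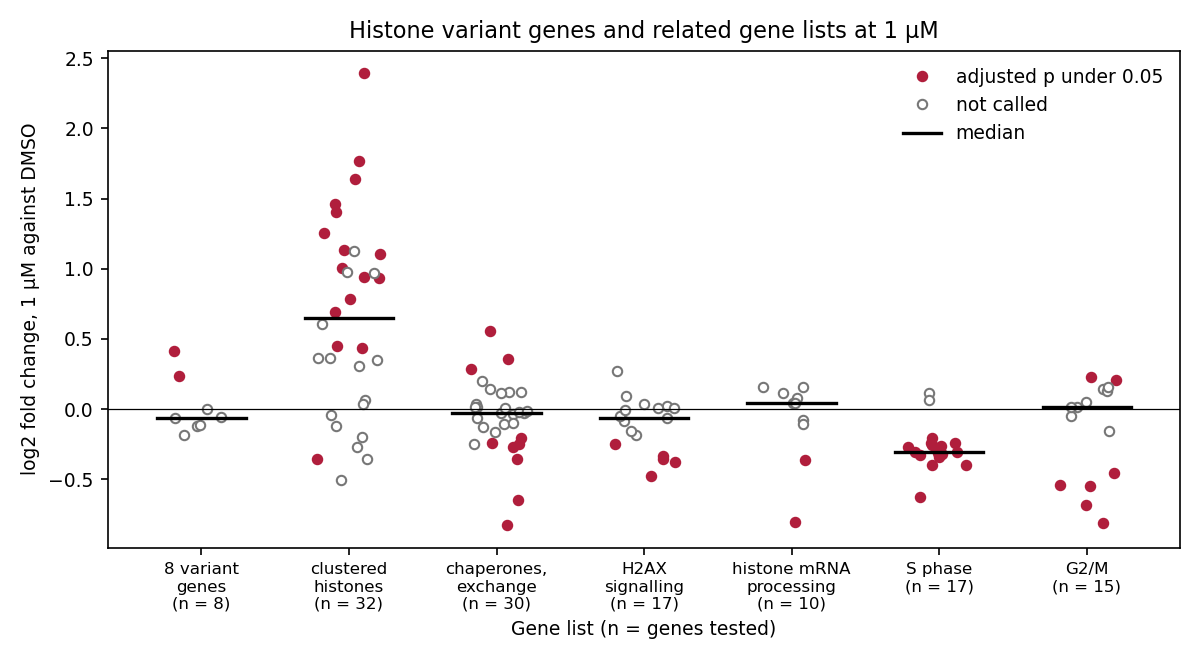
Log2 fold change at 1 μM against DMSO (y axis) of every tested gene of 7 lists (x axis), with filled points for an adjusted p under 0.05, open points for genes not called, and a bar for the median. The median of the 8 variant genes was -0.0605, that of 32 clustered histone genes 0.648 (0.436 without the 5 that passed the count filter only with their 1 μM samples), and that of 17 S phase genes -0.304.

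The genes whose pattern over the 9 samples was most like that of a called member were ranked by the root-mean-square difference in log2(CPM + 0.5), each relative to its DMSO mean, among 14169 genes. For H1FX they were NAV2 (0.071), MXRA7 (0.0809) and RAP2B (0.0862), and for H3F3B they were SPTBN1 (0.0264), PLIN3 (0.0308) and ATP6V0B (0.0352). These values describe the same libraries that gave the changes above.

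Reads from processed copies could be split between a member and its pseudogenes. Of 15 pseudogene rows named after members, 4 were at 0 in all samples. H3F3AP4 was the most abundant, with 451 to 586 counts, and was not called at 1 μM (log2 fold change 0.0245, adjusted p = 0.882, edgeR). H3F3AP6 averaged 43.6 counts and H2AFVP1 22.4, and the others had at most 7 counts in any sample. H1FX had no pseudogene row, and the copies of H3F3B had at most 1 count in any sample. Summing members with their copies could therefore hardly test both calls at 1 μM, which stayed in place. The only gene on the same strand as a member and inside it, MIR4738 in H3F3B, was at 0, and C5orf66, on the opposite strand of H2AFY, averaged 53.4 counts over 24320 shared bases.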

How the data were processed

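Poly(A)-selected RNA of KHM-5M cells was sequenced in 9 samples, 3 in each of the groups DMSO, 0.3 μM and 1 μM YK-4-279. After removal of adaptors and poor reads, the authors aligned the rest to GRCh38 with Hisat2 (HISAT2 2.0.5 in the submitters' processing notes). The methods name HTseq for counting, while the processing notes name featureCounts 1.5.0-p3. The methods give 2 biological replicates per condition, while the labels give 3 samples, all of which were used. The deposited counts are unnormalized whole numbers. The deposited FPKM values are counts per gene length and library size, computed by the authors. The table also holds the authors' log2 fold changes and p-values from DESeq2 1.20.0, which were not used. A further member, the ratio that needs it and a marker gene are not reported here.

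The counts were filtered with filterByExpr (minimum count 10), scaled by TMM and tested with edgeR 4.0.16 (glmQLFit and glmQLFTest) in R 4.3.3 on the 2 groups compared, with Benjamini-Hochberg adjustment over all genes tested. Confidence intervals (95%) used edgeR's total degrees of freedom. Ratios of FPKM were compared by an exact permutation test. FPKM sums, promoter and transcript searches used Python 3.11.15 with pandas 2.3.3. The fits were run on simulated data whose changes were larger than those of H1FX and H3F3B. Recovery of changes of their size was not tested.

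The members and gene lists were chosen with earlier results of these data known. The genes named are the 8 members, from each list the called genes up to 8 by lowest p at 1 μM and genes at 0 in all samples, the 3 genes most like each called member with a mean of at least 1 CPM, pseudogene copies, overlapping genes and markers. Further genes are named with their values where they are parts of a group described. Lists were written by hand and given no test. Alternatives were DESeq2 1.42.0, RLE size factors, a fit with the replicate number as a block, a fit of all 9 samples together, a minimum count of 1, corrections for GC content and gene length (lowess, span 0.3), limma 3.58.1 on log2(FPKM + 0.5), members summed with their copies, ratios of counts and each sample left out in turn. No replicate pair agreed within sampling noise (over genes with at least 20 counts, chi-square was 3.2 to 10.7 times its degrees of freedom). Antisense genes cannot be told apart from their partners if strand was not used in counting.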

Additional observations from a re-analysis of the deposited data

Results flagged for a closer look

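The effect of YK-4-279 differed between the doses for 2 members, as tested by 1 μM against 0.3 μM (edgeR). The difference in the log2 fold change was 0.29 for H1FX (adjusted p = 0.0265) and 0.22 for H3F3B (adjusted p = 0.0151). The 3 samples at 1 μM were all above the 3 at 0.3 μM for H3F3B, while the groups overlapped for H1FX. The calls of H1FX and H3F3B were lost without some single libraries. No group had more than 3 samples, so single samples were not tested for standing apart.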

How the results depend on the processing

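The rises of H1FX and H3F3B at 1 μM against DMSO held in 16 of 16 alternatives, with log2 fold changes of 0.33 to 0.48 and 0.21 to 0.27. The adjusted p was at most 0.0197 and 0.0448. Summing with pseudogene copies is among the 16 and could hardly change either value. Against 0.3 μM, the call of H1FX was lost with limma on FPKM (0.30, adjusted p = 0.0947, 1 member called), and with single samples left out it ran from 0.22 to 0.41, and H3F3B from 0.19 to 0.24. With single samples left out, 0 to 2 members were called there, 0 without 1 μM replicate 3. Genes called at 1 μM against DMSO numbered 2752 (1198 higher, 1554 lower), 2286 with DESeq2 (1148 higher, 1138 lower), 3687 with a GC correction (1810 higher, 1877 lower), 504 by the DEG rule (0 members), and 1683 to 2977 with samples left out, lowest without DMSO replicate 3. Against 0.3 μM they numbered 1963, 1131 with limma on FPKM, and 948 to 1884 with samples left out, lowest without 1 μM replicate 3. At 0.3 μM against DMSO 0 genes were called, 1 by DESeq2, 1 with the replicate block, 3 with the block and a GC correction, and 0 to 4 with samples left out, 4 without 0.3 μM replicate 3. The causes were not tested.

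Small values changed sign. H2AFX at 0.3 μM was -0.046 with the block and GC correction and -0.044 with the GC correction alone. H2AFZ at 1 μM against DMSO was -0.0015 with the block, -0.013 with the block and GC correction and -0.011 with the GC correction. H2AFY at 1 μM against 0.3 μM was -0.00066 with RLE size factors and -0.0033 with all 9 samples in the fit. With samples left out at 0.3 μM against DMSO, H2AFX ran from -0.085 to 0.10, H2AFZ from -0.0398 to 0.00898, H2AFV from -0.068 to 0.0025 and H2AFJ from -0.077 to 0.019. H2AFZ at 1 μM against DMSO ran from -0.057 to 0.052. At 1 μM against 0.3 μM, H2AFY ran from -0.0198 to 0.0400, H2AFZ from -0.028 to 0.077, H2AFV from -0.0598 to 0.0179 and H3F3A from -0.071 to 0.056. The log2 ratio of H2AFV to H2AFZ ran from -0.041 to 0.0064 at 0.3 μM against DMSO and from -0.11 to 0.00698 at 1 μM against 0.3 μM. None of these passed an adjusted p under 0.05 in any alternative.

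Deviations of same-numbered replicates correlated weakly at 0.3 μM against DMSO (0.02 to 0.082). The correlations were -0.022 to 0.055 at 1 μM against DMSO and -0.014 to 0.00043 at 1 μM against 0.3 μM. The numbers were not taken to pair samples, and the block alone changed no call of a member. With the block and a GC correction together H2AFX passed at 1 μM against DMSO (-0.18, adjusted p = 0.0133, edgeR). Each sample correlated best with its own number in 6 of 6 samples at 0.3 μM against DMSO, 2 of 6 at 1 μM against DMSO and 0 of 6 at 1 μM against 0.3 μM. At this depth and with 3 samples per group, the SE of a member's log2 fold change at 1 μM against DMSO was between 0.0526 (H2AFY) and 0.0888 (H2AFX).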
